A study of Mus musculus with 8 samples.

Results

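The chemokine macrophages described here are tissue macrophages that carried transcripts of the chemokines Ccl7, Ccl8 and Ccl12 in mouse organ allografts. They were chosen by their UMI counts, a UMI being a barcode that marks 1 captured transcript. A cell was taken when it had at least 500 UMIs, at most 10% mitochondrial UMIs, at least 5 UMIs of Ccl7, Ccl8 and Ccl12 together, and at least 2 UMIs of Csf1r, Adgre1, Ms4a7, C1qa, C1qb and C1qc together. It also had to have no UMI of the Kupffer cell genes Clec4f and Cd5l and at most 1 UMI of the T cell genes Cd3d, Cd3e, Cd3g and Trac. The rule found 666 cells among the 31804 tissue cells that passed the depth and mitochondrial filter, and among 47541 such cells in the whole series. They are called members below, and the 15 genes of the rule are described without any test because they chose the cells. The comparison class in each library was the 7385 macrophages with at least 2 C1q UMIs that met the other criteria but had fewer than 5 ligand UMIs, called the reference.

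BALB/c livers, hearts and kidneys had been transplanted into C57BL/6J recipients without immunosuppression and were taken on day 7, and the labels give the mice as male BALB/c of 8 weeks. Peripheral blood mononuclear cells (PBMCs), parenchymal cells from digested organ (PCs) and tissue-infiltrating lymphocytes from a density gradient (TILs) were profiled by Microwell-seq, with 1 library per condition and 8 libraries in all. No condition had a second library, so nothing was tested between organs or fractions, and per the study's methods each organ had 2 recipients, while whether their cells were pooled is not given in the sources used here. No member was present in blood: 0 of 7772, 6822 and 1143 PBMCs of heart, liver and kidney recipients met the rule, which allows shares of up to 0.0386%, 0.044% and 0.262%.

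Ccl7, Ccl8 and Ccl12 belong with Ccl2 to the monocyte chemoattractant proteins, small secreted proteins that draw monocytes and other leukocytes out of blood into inflamed tissue. Ccl2, Ccl7 and Ccl12 act on the receptor Ccr2, Ccl7 also acts on Ccr1 and Ccr3, and mouse Ccl8 is a ligand of Ccr8. Macrophages that arise from recruited monocytes lose monocyte genes such as Ly6c2 and Plac8 and gain lysosomal, lipid and complement genes as they mature. C1qa, C1qb and C1qc encode the chains of complement C1q and are broad markers of mature tissue macrophages.

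The ligand genes lie in 1 cluster on mouse chromosome 11, all on the plus strand of build GRCm38 in the GENCODE vM21 annotation. Ccl2 spans chr11:82035571-82037453, Ccl7 chr11:82045712-82047525, Ccl12 chr11:82101845-82103400 and Ccl8 chr11:82115185-82116799. Although the genes are related, no stretch of 31 bases was shared between any pair of their annotated transcripts, so reads of that length or more separate them. The 250 bases before the starts of Ccl8 and Ccl12, from RefSeq on GRCm38.p6 and plus strand, are printed because these are the 2 ligands of the rule with a promoter in the table used. Capitals mark matches, on either strand, to the letters TATAAA (the TATA box) and GAGGAA (the core bound by PU.1, a factor that macrophages need).
Ccl8 (chr11:82114935-82115184): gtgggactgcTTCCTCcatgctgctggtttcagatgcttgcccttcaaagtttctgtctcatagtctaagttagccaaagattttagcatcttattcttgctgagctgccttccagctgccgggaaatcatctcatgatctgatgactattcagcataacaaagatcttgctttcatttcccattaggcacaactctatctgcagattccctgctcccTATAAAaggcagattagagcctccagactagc
Ccl12 (chr11:82101595-82101844): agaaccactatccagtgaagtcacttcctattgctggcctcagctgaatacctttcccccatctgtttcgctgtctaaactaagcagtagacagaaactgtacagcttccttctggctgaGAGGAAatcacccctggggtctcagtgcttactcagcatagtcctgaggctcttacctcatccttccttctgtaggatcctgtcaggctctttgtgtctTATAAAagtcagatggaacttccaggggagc
Both promoters held TATAAA at nearly the same place, from base -32 for Ccl8 and from base -31 for Ccl12 counted from the start. TATAAA was present in 12.4% of 32851 promoter windows of this length, and GAGGAA in 23.3%. Other patterns were searched on both strands and matched neither window, namely an interferon-stimulated response element core, TTCNNNGAA (STAT), TGANTCA (AP-1), TTGCNNAA (C/EBP) and an NF-kappaB site. They were present in 2.98%, 7.02%, 6.75%, 9.56% and 4.65% of all windows.

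The members were spread very unequally over the 5 tissue libraries. The library labelled liver TIL held 555 of the 666 (83.3%), liver PC 41, kidney TIL 35, the library labelled heart TIL 28 and kidney PC 7. The labels of 2 libraries went against their contents. Hepatocyte markers summed to 743 CPM (UMIs scaled to 1000000 in all) over all passing cells of the library labelled heart TIL and to 76.3 CPM in the library labelled liver TIL, whereas cardiomyocyte markers summed to 3.61 and 146 CPM. Both are therefore named as labelled, and results are also given without them. Median depth was 2613 UMIs per member in liver PC and 605 to 984 in the other libraries, against 1493 and 576 to 758 in the reference. Of the members, 85 (12.8%) had a cell barcode that also occurred in another library, compared with 11.8% of all passing tissue cells, and no barcode was a member in more than 1 library.

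As a share of members plus reference, members made up 15.4% of macrophages in kidney TIL (exact 95% binomial interval 10.9 to 20.7%) and 14.2% in the library labelled liver TIL (13.2 to 15.4%). The share was 3.8% among kidney PCs (1.54 to 7.68%), 2.74% in liver PC (1.97 to 3.7%) and 1.25% in the library labelled heart TIL (0.83 to 1.8%). The intervals of the first 2 libraries overlapped each other and lay above those of the other 3, and they cover counting error only. The values depended on the depth of the cells. The ligands were also counted after each cell was thinned to 500 UMIs, with the other criteria kept at full depth. Kidney TIL was then highest at 13.2%, followed by the library labelled liver TIL at 7.75% and kidney PC at 3.26%. The library labelled heart TIL stood at 0.668% and liver PC at 0.535%. Among macrophages in which C1q made up at least 1% of UMIs the shares were 28.4%, 36.6%, 16.7%, 3.17% and 7.95% in the same order. Across all 3 ways of counting, kidney TIL and the library labelled liver TIL remained above liver PC and the library labelled heart TIL.

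**Figure D1:**
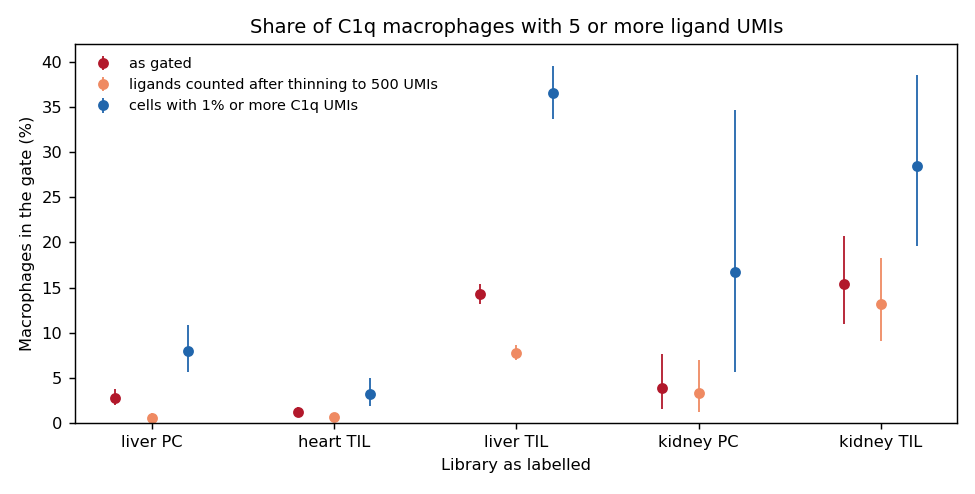
Share of macrophages (members plus reference, vertical axis in percent) that met the ligand criterion in each tissue library, with exact 95% binomial intervals as bars. The 3 colours are the cells as gated, the ligands counted after thinning to 500 UMIs, and cells with at least 1% C1q UMIs; as gated, the highest shares were 15.4% and 14.2%, in the last and the third library drawn, with 1.25 to 3.8% elsewhere.

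Other cells with ligand UMIs were left outside by the rule. In the 5 tissue libraries 1055 passing cells had at least 5 ligand UMIs, of which 34 had too few macrophage UMIs. A further 316 were left out by T cell UMIs alone, 245 of them in the library labelled liver TIL, and 18 by Kupffer cell UMIs alone. Whether those with T cell UMIs were macrophages captured together with T cells was not tested, and no doublet caller was run. The values just inside and outside the threshold in the library labelled liver TIL, for the 110 cells with exactly 5 and the 190 cells with exactly 4 ligand UMIs, were 642 and 437 CPM of Ccl2, 525 and 265 CPM of Cd72, and 5817 and 5595 CPM of Apoe.

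Ccl8 was the leading ligand. It supplied 61.4% of the members' ligand UMIs in liver PC, 71% in the library labelled heart TIL, 70.9% in the library labelled liver TIL, and 83.3% and 93.8% among the PCs and TILs of kidney. In single cells, Ccl8 led in 456 of the 666 members, Ccl12 in 115 and Ccl7 in 68, and 27 were tied. All 3 ligands were detected in 217 members, 2 in 271 and only 1 in 178. The largest ligand count was 158 UMIs, in a member of the library labelled liver TIL, whose members had a median of 9.

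Members of kidney TIL had mostly Ccl8. There Ccl8 stood at 18402 CPM (exact 95% Poisson interval 16692 to 20240), Ccl12 at 781 CPM (463 to 1235) and Ccl7 at 434 CPM (208 to 798). Ccl8 led in 33 of these 35 cells, and 25 of them had no Ccl7 UMI and 25 no Ccl12 UMI. In liver PC members Ccl8 stood at 2632 CPM (2349 to 2940), Ccl12 at 1048 CPM (872 to 1248) and Ccl7 at 604 CPM (472 to 760), and Ccl8 led in 20 of 41 cells and Ccl12 in 16. Members of the library labelled liver TIL had 9362 CPM of Ccl8, 2073 of Ccl12 and 1776 of Ccl7, and those of the library labelled heart TIL 10944, 2993 and 1481. The 7 kidney PC members had 15187, 2336 and 701 CPM. The rule asks for 5 ligand UMIs whatever the depth, so that it admits lower CPM in the deeper liver PC cells, and these levels are not compared between libraries.

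Ligand UMIs outside the members were not all low, and in every library most of them lay there. Members held 22.2% of all Ccl8 UMIs in liver PC, 21.7% in the library labelled heart TIL and 38.4% in the library labelled liver TIL. They held 2.66% in kidney PC and 23.1% in kidney TIL. In kidney PC, barcodes under 500 UMIs held 87.6%. Among the reference of kidney TIL, Ccl12 supplied 41.5% of ligand UMIs and Ccl8 51.7%, and in the members 3.98% and 93.8%, classes that the rule split on the sum of these ligands. T cells were cells with at least 2 UMIs of Cd3d, Cd3e, Cd3g and Trac together and no UMI of the rule's macrophage genes. They should lack the ligands, but this choice leaves out T cells with macrophage transcripts, so their level can understate free RNA. Ccl8 in T cells stood at 12.7 CPM for liver PC and 51.8 for the library labelled heart TIL. It stood at 101 and 373 for TILs and PCs of kidney, and 447 for the library labelled liver TIL. Ccl8 stood at 1069 CPM in the reference of the library labelled liver TIL, against 9362 CPM in the members. Barcodes under 500 UMIs in that library had 1680 CPM, above the reference. All its other cells, which hold those left out of the rule with 5 or more ligand UMIs and are no background, had 1305 CPM. In kidney PC the barcodes under 500 UMIs had 734 CPM and the reference 706 CPM, and in kidney TIL 444 and 475 CPM.

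**Figure D2:**
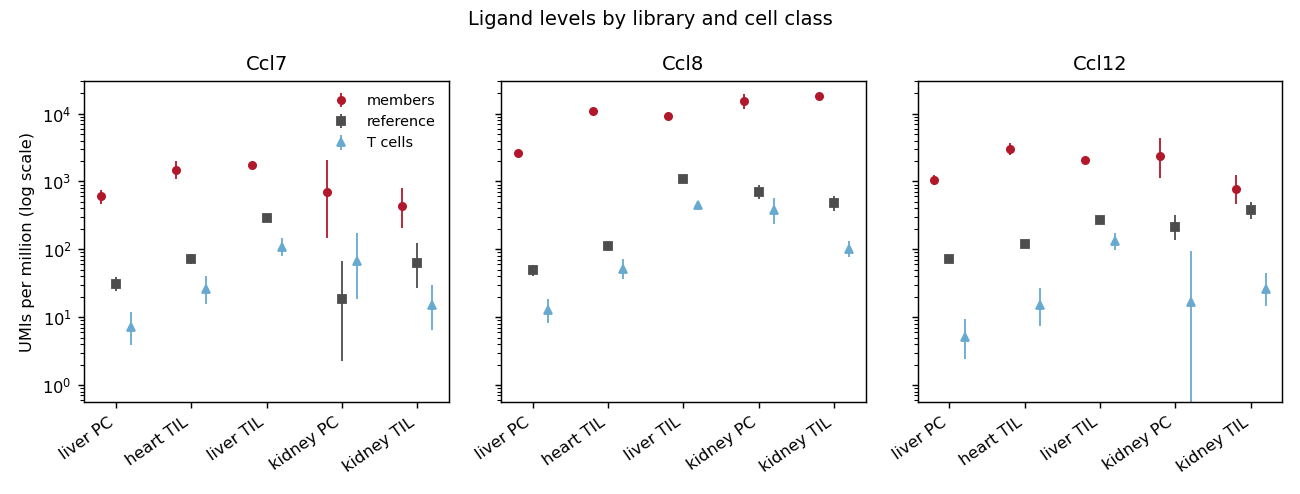
CPM (log axis) of Ccl7, Ccl8 and Ccl12 in members, reference and T cells of each tissue library, with exact 95% Poisson intervals as bars. Members were chosen by these genes, and T cells were chosen to have no UMI of the rule's macrophage genes. In kidney TIL members Ccl8 stood at 18402 and Ccl7 at 434. T cells lay lowest for Ccl8 in every library, between 12.7 and 447.

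The members had the transcripts of macrophages beyond the genes of the rule, and in some libraries many transcripts of other lineages. Of 12 macrophage markers, at most 3 were at 0 in the members of any library, and the markers summed to 35155 to 51017 CPM, against 22286 to 34103 CPM in the reference. B cell markers were all at 0 in liver PC, the library labelled heart TIL and kidney PC, summing to at most 50.8 CPM elsewhere. Erythroid markers, mainly haemoglobin genes, were abundant in 2 libraries. They summed to 29239 CPM in members of the library labelled liver TIL, 58943 CPM in its reference and 30712 CPM in its T cells, and to 13318, 20409 and 11104 CPM in kidney PC. They stood at 998 CPM in kidney TIL members and at most 32.2 CPM in those of the other 2 libraries. Proximal tubule markers summed to 4206 CPM in members and 7394 CPM in the reference of kidney PC, and to 1606 and 2530 CPM in kidney TIL. T cell markers, 4 of them limited by the rule, summed to 570 to 2570 CPM in members and 1254 to 4273 CPM in the reference. Neutrophil markers summed to 1945 CPM in members and 10688 CPM in the reference of liver PC, 2478 and 7293 CPM in the library labelled heart TIL and 3542 and 7004 CPM in the library labelled liver TIL. Plasma cell markers summed to 1669 and 4890 CPM in the latter. The part of these cells in the differences below was not tested. The differences that the text turns on are also given for cells in which C1q made up at least 1% of UMIs, 480 members and 1731 reference cells. There the neutrophil sums of the reference were 2947, 2842 and 3959 CPM in the same 3 libraries, and its erythroid sum was 32473 CPM in the library labelled liver TIL. This second comparison was chosen after the data were seen.

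Summed counts of members and reference were compared across genes in the 4 libraries with at least 10 members, with the library as a block (edgeR quasi-likelihood test, Benjamini-Hochberg adjustment). Kidney PC, with 7 members, did not enter. After removal of the rule's genes, 152 of 4047 genes (3.76%) were higher in members at an adjusted p under 0.05 and 186 (4.60%) were lower, and 107 and 127 of these had the same sign in all 4 libraries. With both classes at 1% C1q, 29 of 3438 genes (0.844%) were higher and 29 (0.844%) lower, and each of these 58 was called in the same direction in the first comparison. The counts lean on the library labelled liver TIL, which supplied 630451 member UMIs against 23041 to 119304 in the other 3 libraries. Without it 71 genes were higher and 67 lower, and without it and the library labelled heart TIL 42 and 43. When limma gave each library equal weight, 12 were higher and 9 lower, and none in either direction at 1% C1q. There 45 and 162 of the 3438 genes had an unadjusted p under 0.05. Together this is near the share that such a threshold gives without any difference, but the directions were unequal, with more genes lower.

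The members had more of another chemokine of the same family and of platelet factor 4. Ccl2, the monocyte attractant whose gene lies next to Ccl7, stood at 637, 1062, 855 and 217 CPM in members of liver PC, the libraries labelled heart TIL and liver TIL, and kidney TIL, against 95.5, 150, 283 and 70.1 CPM in the reference. It was higher in members in each of these 4 libraries, by 2.11 ± 0.15 on the log2 scale (fit value and SE, edgeR adjusted p = 7.51e-42), and by 1.48 at 1% C1q (adjusted p = 5.28e-17). In kidney PC it had no UMI in the 7 members. After thinning, 22%, 35.7%, 28.3% and 5.71% of members had a Ccl2 UMI in the same library order, against 4.4%, 5.59%, 11.9% and 3.63% of the reference and 0.435 to 3.38% of T cells. In kidney TIL these were 2 of 35 members and 7 of 193 reference cells, with overlapping intervals (0.7 to 19.2% and 1.47 to 7.33%). Of the 11 other CC chemokines listed, 6 were tested, 3 were higher (Ccl2, Ccl6 and Ccl9) and 1 was lower (Ccl3), with a median log2 difference of 0.24 against -0.03 over all genes tested. At 1% C1q, Ccl2 and Ccl6 remained.

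Pf4, Cd72 and Ch25h had been named as marker genes of these cells from earlier results of the same data, so their differences are given as a description. Pf4 stood at 134, 386, 554 and 174 CPM in members against 33, 54.8, 197 and 23.4 CPM in the reference, in the library order above. A single cell of the library labelled liver TIL held 64 of its 349 Pf4 UMIs. Cd72, an inhibitory receptor, stood at 352 and 634 CPM in members of liver PC and the library labelled liver TIL against 100 and 202 CPM in the reference. In the library labelled heart TIL it stood at 96.6 and 113 CPM and in kidney TIL at 130 and 109 CPM, so that Cd72 was higher in only 2 libraries by more than counting error. Ch25h, which makes 25-hydroxycholesterol, was at 161 and 274 CPM in members of the libraries labelled heart TIL and liver TIL against 7.68 and 79.8 CPM, and had 1 UMI among the 41 liver PC members.

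Some CXC chemokines were also higher, among them Cxcl9 and Cxcl10, which interferon gamma induces. Of 7 tested CXC chemokines, 4 were higher (Pf4, Cxcl9, Cxcl10 and Cxcl16) and 1 lower, Cxcl2, a neutrophil attractant. Pf4, as a marker of the label, is no independent member of this count. Cxcl11 was tested and not called, and limma with equal weights called 1 gene of the list. Cxcl10 stood at 1358, 451, 512 and 1259 CPM in members against 551, 247, 403 and 973 CPM in the reference, and its difference was the same size at 1% C1q (0.69 and 0.71, adjusted p = 3.11e-06 and 1.53e-05). Cxcl9 was higher by 0.72 (adjusted p = 5.49e-09) but by 0.30 at 1% C1q (adjusted p = 0.226). Among 22 tested type I interferon-stimulated genes edgeR called none higher, with 3 higher at an unadjusted p under 0.05, and called 2 lower (Ifi27l2a and Isg20); limma called none. Of 20 interferon gamma response genes 1 was higher and 1 lower, and their median differences of 0.03 and -0.01 lay near that of all genes.

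Lysosomal and lipid genes were higher in members. Of 20 tested genes of the cathepsin and lysosome list, 16 were higher in members and none lower, with a median of 0.76. At 1% C1q, where the median was 0.32, 7 of these genes were still called. With equal library weights limma called 5 of them, against 1 gene of the lipid list. Ctsb, a lysosomal protease, stood at 4702, 5890, 4835 and 3125 CPM in members against 2473, 2798, 2469 and 1253 CPM in the reference. Lgmn, the protease legumain, stood at 1920, 2092, 1786 and 608 CPM against 736, 796, 761 and 125 CPM. Both were higher in members in each of these 4 libraries. In kidney PC Ctsb stood at 3271 and 1282 CPM, from 14 UMIs in members, and Lgmn at 701 and 149 CPM, from 3 UMIs with an interval of 145 to 2048 CPM. Cd63, a membrane protein of lysosomes and late endosomes, stood at 469, 1481, 726 and 651 CPM against 106, 123, 314 and 358 CPM, and its log2 difference was 1.79 in the first comparison and 1.78 at 1% C1q. A single cell of the library labelled heart TIL held 21 of its 46 Cd63 UMIs, and the level there was 867 CPM without it.

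Of 14 tested lipid genes, 12 were higher and none was lower (median 0.68, and 0.43 at 1% C1q). At 1% C1q 5 were called (Apoe, Spp1, Ch25h, Fabp5 and Cd36), where Ch25h, as a marker of the label, is no independent call. Apoe, the apolipoprotein that macrophages secrete with cholesterol, had the smallest p of all genes tested. It stood at 9639, 13261, 11573 and 2821 CPM in members against 3315, 4168, 4239 and 522 CPM in the reference, a log2 difference of 1.61 ± 0.11 (edgeR adjusted p = 1.81e-45) that was 1.01 at 1% C1q (adjusted p = 4.36e-14). In T cells Apoe stood at 54.5 to 1093 CPM. Fabp5, a fatty acid binding protein, stood at 319, 258, 176 and 521 CPM against 180, 86.5, 65.2 and 62.3 CPM. Spp1, which encodes osteopontin, was higher by 0.67 in the first comparison and by 1.28 at 1% C1q (edgeR adjusted p = 3.05e-04 and 1.22e-10). In kidney TIL, however, it stood at 391 CPM in members and 483 CPM in the reference. In the library labelled liver TIL, members with 5 to 9 and with 10 or more ligand UMIs had 403 and 352 CPM of Spp1. Macrophages of that library with fewer ligand UMIs had 321 to 469 CPM.

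Genes known from tissue-resident macrophages were among the higher ones, at low counts. Folr2, a folate receptor, stood at 75.4, 129, 34.9 and 43.4 CPM in members against 11.5, 3.58, 7.83 and 7.79 CPM in the reference, from 9, 4, 22 and 1 UMIs in members. Mrc1, the mannose receptor, stood at 67.1, 96.6, 38.1 and 43.4 CPM against 17.3, 7.68, 6.71 and 0 CPM. Their log2 differences of 2.59 and 2.41 (adjusted p = 8.53e-11 and 4.69e-10) were 2.42 and 1.68 at 1% C1q. Of the 6 tested genes of the resident macrophage list 3 were higher (Selenop, Folr2 and Cd81). Vcam1, an adhesion molecule that binds leukocyte integrins, stood at 319, 418, 130 and 130 CPM against 94.7, 95.2, 52.9 and 85.6 CPM. Hmox1, which breaks down haem, was higher in 3 libraries, at 2305 against 1041 CPM in liver PC, but stood at 515 against 650 CPM in the library labelled heart TIL. Kupffer cell markers, of which Clec4f and Cd5l were at 0 in both classes by the rule, summed to 2422, 579, 2092 and 564 CPM in members and 1126, 756, 1104 and 187 CPM in the reference. Hmox1, a member of that list, made up most of these sums in the members.

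Genes of monocytes were lower. Of 13 tested genes of the monocyte to macrophage list, 10 were lower in members and 1 was higher (Lgals3), with a median of -0.90. At 1% C1q, where the median was -0.61, 5 were called lower (Plac8, Ly6c2, S100a6, Ccr2 and Hp). Plac8, abundant in classical monocytes, stood at 1333, 1384, 1578 and 521 CPM in members against 3179, 3074, 2743 and 1191 CPM in the reference. Ly6c2, the marker of classical monocytes, stood at 620, 579, 615 and 1085 CPM against 1788, 1024, 1101 and 2203 CPM. Chil3, a chitinase-like protein of monocytes and alternatively activated macrophages, stood at 1257, 1899, 352 and 43.4 CPM against 4387, 3775, 759 and 226 CPM. These 3 fell by 1.07, 1.11 and 1.37 in the fit and by 0.85, 0.75 and 1.01 at 1% C1q, each with an edgeR adjusted p of 7.17e-06 or smaller. Plac8 and Ly6c2 were also among the 9 genes called lower with equal library weights.

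The inflammatory cytokine list was mixed, with Il1b and Osm lower and Il18bp higher among 10 tested (median -0.23), and 1 lower and 1 higher among 7 at 1% C1q. In this list limma with equal weights called no gene. Il1b fell by 1.34 in the fit (adjusted p = 6.54e-19) and by 0.70 at 1% C1q (adjusted p = 4.96e-04). It stood at 461, 193 and 720 CPM in members of liver PC and the libraries labelled heart TIL and liver TIL against 1273, 844 and 1633 CPM in the reference, and at 43.4 CPM from a single UMI in kidney TIL. The reference at 1% C1q had 466, 388 and 995 CPM. This was close to the level of all members in liver PC and above that level in the other 2 libraries. The levels of members at 1% C1q are not given here. S100a9 and Ighm were also lower, with S100a9 at 486, 483 and 1098 CPM in members of these 3 libraries against 3707, 1628 and 2238 CPM, and Ighm at 92.2, 64.4 and 114 CPM against 440, 401 and 471 CPM. S100a9 is abundant in neutrophils and Ighm in B-lineage cells, and the reference at 1% C1q had 1017, 637 and 1277 CPM of S100a9.

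**Figure D3:**
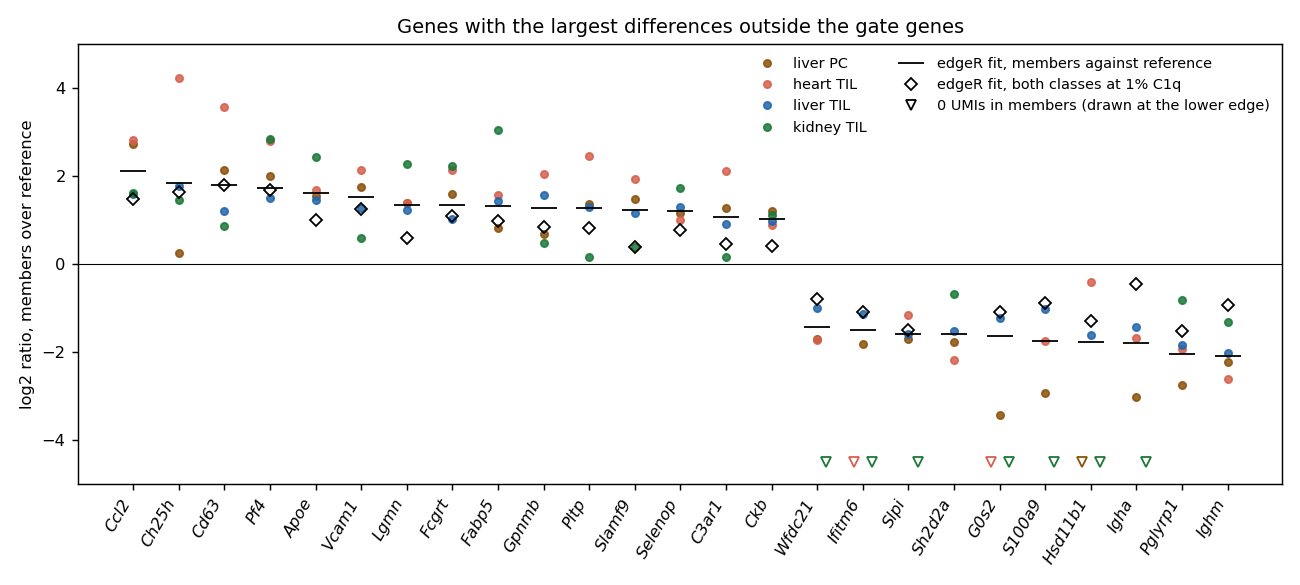
Log2 ratio of members over reference (vertical axis) for the 15 genes with the largest positive and 10 with the largest negative differences among called genes of higher level, with points for the 4 libraries of the fit, bars for the edgeR value and diamonds for the value at 1% C1q. Ccl2 lay at 2.11 and 1.48 and Apoe at 1.61 and 1.01, whereas Igha moved from -1.80 to -0.46; triangles mark libraries without a UMI in members.

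MHC class II genes, which present antigen to CD4 T cells, were higher against the whole reference. Of 6 tested, 5 were higher (H2-Eb1, H2-Aa, Cd74, H2-Ab1 and H2-DMa), and none was called at 1% C1q, where none had an unadjusted p under 0.05 either and their median was 0.10; limma with equal weights called H2-Eb1 and Cd74. Cd74 stood at 14819, 21469, 21332 and 29990 CPM in all members, whatever their C1q, and at 10144, 12459, 14240 and 19089 CPM in the whole reference. In the reference at 1% C1q it stood at 14115, 17030, 23040 and 27489 CPM. All 6 Fc receptors tested were higher, and Fcgrt, which recycles immunoglobulin G, was called at 1% C1q, and limma with equal weights called none of the 6. Arg1, an enzyme of alternative activation, was higher by 0.98 (adjusted p = 6.78e-12) and by 0.42 at 1% C1q (adjusted p = 0.0522), and had no UMI in the kidney TIL and kidney PC members.

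Of 8 tested genes of the alternative activation list, 5 were higher (Arg1, Mrc1, Msr1, Pdcd1lg2 and Il4ra) and Chil3 was lower, and at 1% C1q Mrc1 and Chil3 were called. In the scavenger receptor list Msr1 and Cd36 were higher among 6 tested, in the complement list Cfp, C3ar1 and C5ar1 among 9, and in the iron and haem list 4 were higher and Lcn2 lower among 8. At 1% C1q, Cd36 of the first list and Hmox1 and Trf of the last were called, and of the complement genes none, with 2 higher at an unadjusted p under 0.05. With equal weights limma called none of these 4 lists. Among 12 tested S phase genes, 11 G2/M genes and 13 genes of glycolysis and hypoxia neither edgeR nor limma called any in either direction, with medians of -0.19, -0.30 and -0.03. At an unadjusted p under 0.05, 1 S phase gene and 4 G2/M genes were lower and none of the 3 lists had a higher one. Of 17 immediate early genes, which are induced when tissue is dissociated, 6 were lower and none higher (median -0.41), and Zfp36 was called at 1% C1q. Here too limma with equal weights called none of the 17. Of 9 MHC class I genes only H2-Q7 was called, and of 17 transcription factors only Nr4a1, both lower, and limma called neither. Over all genes tested edgeR called 3.76% higher and 4.60% lower, so 1 call in a list of this size says little about the list. Among 118 tested ribosomal protein genes 27 were lower and none higher, and 3 were lower at 1% C1q.

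Levels are also given by ligand count within the library labelled liver TIL, over macrophages that met the other criteria. The top 2 bins are the 555 members themselves and the genes were chosen for their difference, so these values describe the members and add no support. Apoe went from 3713 CPM in the 1082 cells without a ligand UMI through 4178, 4922 and 8117 CPM at 1 to 2, 3 to 4 and 5 to 9 ligand UMIs to 14615 CPM in the 250 cells with 10 or more. Ccl2 stood at 252, 273, 379, 732 and 963 CPM in the same bins, and Pf4 at 152, 210, 207, 329 and 752 CPM. Plac8 stood at 2888, 2861, 2441, 1897 and 1298 CPM, Chil3 at 818, 804, 631, 484 and 236 CPM, and Il1b at 1691, 1600, 1636, 1033 and 444 CPM. The first 3 genes were highest and the last 3 lowest in the cells with most ligand, and most of the change lay above 4 ligand UMIs. Spp1, higher in the fit, had no such order, at 349, 321, 469, 403 and 352 CPM. Other values moved along the same bins. C1q stood at 6391 CPM in the first and 17317 CPM in the last bin and the neutrophil markers at 7441 and 2306 CPM, while median depth was 679 and 1122.5 UMIs, and their part in the trend was not tested.

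**Figure D4:**
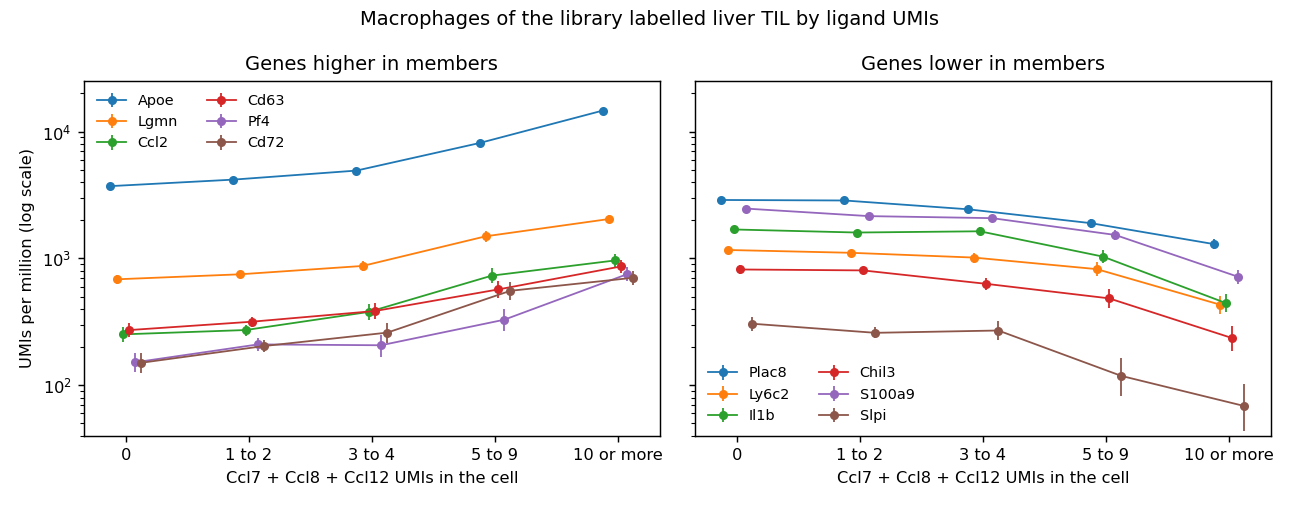
CPM (log axis) of 6 genes higher and 6 genes lower in members, in macrophages of the library labelled liver TIL grouped by their Ccl7, Ccl8 and Ccl12 UMIs, with exact 95% Poisson intervals as bars. Apoe went from 3713 to 14615 and Chil3 from 818 to 236 between the cells without ligand and those with 10 or more ligand UMIs.

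Members that differed in their leading ligand also differed in other genes. In the library labelled liver TIL, 382 members were led by Ccl8, 86 by Ccl12 and 62 by Ccl7. Ccl2 stood at 2328 CPM in the Ccl7-led cells (2018 to 2671), 783 CPM in the Ccl12-led (618 to 979) and 570 CPM in the Ccl8-led (500 to 647), and 79%, 45.3% and 34.3% of these cells had a Ccl2 UMI. Apoe went the other way, at 13862 CPM in the Ccl8-led cells (13507 to 14224) and 6880 and 7616 CPM in the Ccl7-led and Ccl12-led. Fabp5 at 228 CPM (184 to 278), Gpnmb at 101 CPM (72.5 to 136) and Pltp at 333 CPM (280 to 393) were likewise highest in the Ccl8-led cells. In the Ccl7-led cells they stood at 57.3 CPM (18.6 to 134), 22.9 CPM (2.78 to 82.8, from 2 UMIs) and 138 CPM (71.1 to 240), and in the Ccl12-led at 71.2 CPM (28.6 to 147), 10.2 CPM (0.257 to 56.7, from 1 UMI) and 173 CPM (101 to 277). The intervals of Gpnmb in Ccl7-led and Ccl8-led cells overlapped. Ch25h was lowest there, at 182 CPM (143 to 228) against 504 and 498 CPM. Pf4 was highest in the Ccl7-led cells at 1559 CPM, against 446 CPM in the Ccl8-led and 254 CPM in the Ccl12-led. In the first, 1 cell held 64 of the 136 UMIs, and without the top cell of each class the levels were 849, 416 and 177 CPM, with a UMI in 27.4%, 22.8% and 12.8% of cells. These cells come from 1 library, so the intervals cover counting error and not the spread between animals.

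**Figure D5:**
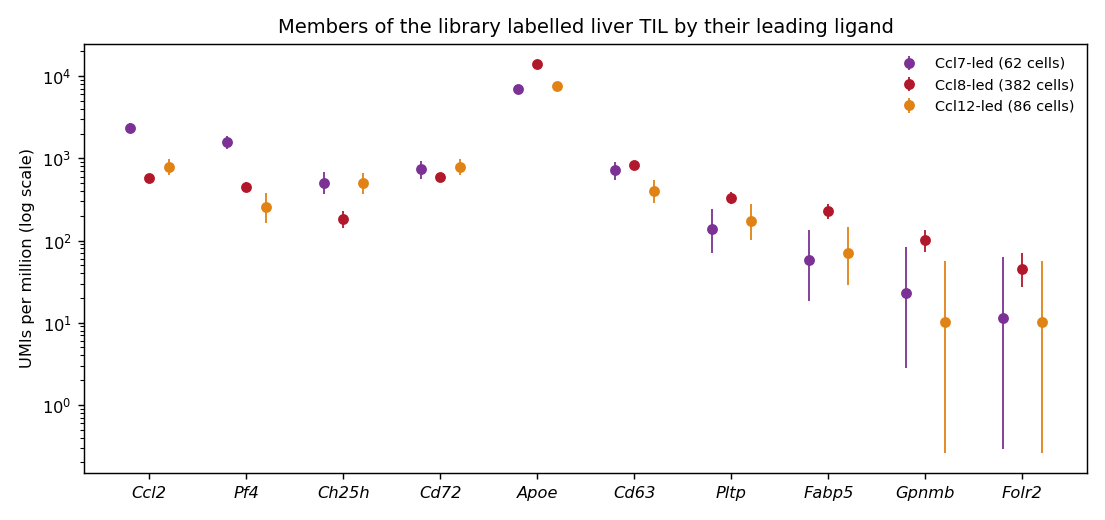
CPM (log axis) of 10 genes in members of the library labelled liver TIL whose leading ligand was Ccl7 (62 cells), Ccl8 (382 cells) or Ccl12 (86 cells), with exact 95% Poisson intervals as bars. Ccl2 was highest in Ccl7-led cells at 2328 and Apoe highest in Ccl8-led cells at 13862.

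The receptors of these ligands were measured in members, reference, T cells and all other cells. Ccr2, the receptor of Ccl2, Ccl7 and Ccl12, stood at 134, 161, 143 and 174 CPM in members of liver PC, the libraries labelled heart TIL and liver TIL, and kidney TIL, against 183, 118, 237 and 381 CPM in the reference. It fell by 0.66 in the edgeR fit (adjusted p = 0.0145) and by 0.81 at 1% C1q (adjusted p = 0.0245), with the opposite sign in the library labelled heart TIL, where the members had 5 UMIs. Members of kidney TIL had 4 UMIs, and limma with equal weights called no gene of the chemokine receptor list. Ccr1 stood at 319, 193, 309 and 174 CPM in members against 223, 161, 320 and 7.79 CPM in the reference, and was not called. Ccr8, the receptor of mouse Ccl8, had no UMI in any member and at most 1 UMI among the reference or the T cells of any library, with 9 UMIs in the other cells of liver PC. Ccr3 had 1 UMI and the scavenging receptor Ackr2 none in the members, so that neither could be compared at this depth.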

How the data were processed

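The authors made the deposited tables of UMI counts per gene and cell from Microwell-seq reads of 8 libraries, with STAR and a GRCm38 build per the labels. The deposited counts hold 10000 barcodes per library before the filter that the study states, which was applied here (at least 500 UMIs, at most 10% mitochondrial). It left 47541 cells, fewer than the study reports after its quality control. UMIs of members and reference were summed per library and compared with edgeR 4.0.16 (quasi-likelihood, TMM, library as block, 8 sums, 3 residual degrees of freedom, filterByExpr), and CPM was computed from all UMIs of a class. Depth ran from 3418722 to 19171264 UMIs per tissue library. The blocks are libraries. Because edgeR pools the spread over genes, a p-value reflects this pooled spread and counting error more than a gene's own spread between these 4 libraries. It does not measure the spread between recipients. Named genes were the rule's genes, the markers of the label, the 15 higher and 10 lower genes with the largest differences of the same sign in every library and a mean log2 CPM of at least 6, and the leading genes of each list. Other genes in the text were chosen after their values were seen. The members and lists were chosen with earlier results of these data known. The fit was also run on simulated counts with the same spread set for every gene. That run cannot show how the fit behaves at the spread between these libraries. Alternatives were DESeq2 1.42.0, limma, other filters, thresholds and left-out libraries. Poisson and binomial intervals are exact, at 95%, for counting error only.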

Additional observations from a re-analysis of the deposited data

Results flagged for a closer look

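Some genes had log2 ratios of opposite sign between libraries, each with an exact 95% interval of the ratio that did not reach 0, for counting error only, and the differences between libraries were not tested. Ccl5, a T cell and macrophage chemokine, had a log2 ratio of members over reference of 0.316 in the library labelled liver TIL, -0.376 in liver PC and -0.41 in the library labelled heart TIL. Cst3, a cysteine protease inhibitor, had ratios of 0.539 and 0.365 in the libraries labelled heart TIL and liver TIL and -0.208 in liver PC. Saa3, an acute phase protein, had ratios of 0.192 in the library labelled heart TIL and -3.49 in kidney TIL. Dusp1, an immediate early phosphatase, had ratios of 3.62 in kidney PC, from 2 UMIs in its 7 members and 4 in its reference (interval 0.19 to 6.46), and -0.253 in the library labelled liver TIL.

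Barcodes under 500 UMIs, which entered no comparison, also met the other criteria of the rule. There were 24 in the library labelled liver TIL, 53 in kidney PC and 28 in kidney TIL, with medians of 474.5, 345 and 395.5 UMIs, and none in the 3 blood libraries. In kidney PC they outnumbered the 7 members.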

How the results depend on the processing

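The counts of 152 genes higher and 186 lower in members depended on the setting. They were 61 and 67 with DESeq2, 92 and 122 without cells with a T cell UMI, and 51 and 94 at a floor of 1000 UMIs. They were 82 and 101 without cells with at least 2 UMIs of B cell, plasma cell, NK cell, endothelial and stromal markers together. Neutrophil, erythroid, hepatocyte and proximal tubule markers were not part of that filter. Without a filter on low counts 57 were higher, at 3 ligand UMIs 112 were lower, and without the libraries labelled heart TIL and liver TIL 42 and 43 were called. Leaving out 1 library gave 71 to 141 higher and 67 to 161 lower, lowest without the library labelled liver TIL. Settings chosen after seeing the data gave 29 and 29 at 1% C1q, 16 and 5 at 1% C1q without the library labelled liver TIL, 12 and 9 with limma at equal weights, and 0 and 0 with limma at 1% C1q. Across the settings 26 log2 differences were followed, not those of every named gene. Of their values in the other settings, 545 kept direction and side of the threshold, 67 lost the call and 3 reversed. The 3 were Slamf9 (-0.12) and Cd72 (-0.43) with limma at 1% C1q, and Igha (0.041) at 1% C1q without the library labelled liver TIL. The cause was not tested.

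The share of macrophages in the gate, for liver PC, the libraries labelled heart TIL and liver TIL, kidney PC and kidney TIL, was 5.21%, 2.98%, 28.8%, 10.9% and 22.8% at 3 ligand UMIs, and 7.95%, 3.17%, 36.6%, 16.7% and 28.4% at 1% C1q. At 10 ligand UMIs it was 1.14%, 0.49%, 6.42% and 7.89% without kidney PC. With only the ligand counts thinned it was 0.535%, 0.668% and 7.75% in the first 3. At 1000 UMIs it was 2.4% and 32% in the libraries labelled heart TIL and liver TIL. The Ccl8 part of ligand UMIs was 55.5%, 61.2% and 90.5% in liver PC, the library labelled heart TIL and kidney TIL at 3 ligand UMIs. At 10 it was 78.3%, 82.9% and 96.7% in the same libraries and 75.1% in the library labelled liver TIL, where thinning gave 72.1%. Members and reference were paired within each library throughout. Between conditions, no paired analysis was possible because each had 1 library, numbered by accession order only.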
